A study of Mus musculus with 6 samples.

Results

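DNA replication and S-phase genes were examined as a group of 49 genes, each a known part of the replication machinery or of its supply and control. They were picked by name, with earlier results of these data known. All 49 were found among the 41819 rows of the gene table, and all 49 were among the 11509 genes with enough counts to be tested. The cells were mouse 3T3 fibroblasts of a single clone, so clone-specific features are shared by every library. By the study's methods, every dish carried a lentiviral TetOne cassette in which doxycycline switches on human PARG (hPARG), and was selected with puromycin. The study's discussion and data statement instead speak of non-transfected cells as the comparison, whereas the sample labels call them not induced. The methods give the construct as pLVX-TetOne-hPARG-IRES-mClover3-NLS-Puro, with a nuclear fluorescent protein, but name the sequenced clone pLVX-TetOne-hPARG-IRES-Puro without it, while the sample labels mention mClover3. Of 6 dishes, 3 were grown for 72 h with 500 ng/ml doxycycline (labelled as overexpressing PARG, here hPARG) and 3 for the same time without it (labelled as not induced, here control). No sequenced group received doxycycline without the cassette, so hPARG and doxycycline itself cannot be told apart in these libraries. The study did treat cells without the construct with doxycycline and measured selected genes by qPCR, but its primer list holds none of the 49. The sample labels speak of wells of a 6-well plate and the study's methods of dishes, and nothing says that the dishes came from separate cultures before the split. The p-values therefore measure the spread between dishes of 1 clone.

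PARG removes chains of poly(ADP-ribose), a polymer that nuclear enzymes of the PARP family build on proteins at broken or unfinished DNA. Before S phase, the origin recognition complex, CDC6 and CDT1 load rings of the MCM2-7 helicase onto DNA, a step called licensing. At the start of S phase CDC45 and the GINS complex join MCM2-7 to form the active CMG helicase, and polymerases, the single-strand binding protein RPA, the sliding clamp PCNA and its loader RFC then copy both strands. Transcripts of most of these proteins are raised by E2F transcription factors as cells pass from G1 into S phase, so their summed level is widely used as a sign of how much a culture is cycling. In RNA from whole dishes, fewer cells in S phase and less of these transcripts in each such cell cannot be told apart. By cell counts, the study reported a similar doubling time of its hPARG cells with and without doxycycline. It gave no measure of the share of cells in S phase.

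The promoters are shown first, because E2F factors are known to act through short letters near the starts of such genes. Windows from 250 bases before to 50 bases after the start of each gene (RefSeq, GRCm38.p6) were matched by symbol for 39 of the 49 genes. They were searched on both strands for the E2F letters TTTCCCGC, TTTCGCGC, TTTGCCGC and TTTGGCGC. A match was found in 14 of the 39 windows (35.9%), compared with 4.28% of the 9058 windows of tested genes and 2.32% of the 27025 windows of all genes. A match in either direction of reading counts once for its gene, and matches may overlap each other or a GC box. The 14 genes were Mcm3, Mcm5, Mcm6, Mcm7, Orc1, Cdc6, Cdt1, Gins3, Pola1, Pold1, Pold3, Pole2, Rfc3 and E2f2. Of 20 matches in all, those of 8 genes included at least 1 before the RefSeq start. The stretches around them are printed for the 4 of these genes whose stretch no annotated exon overlaps, written 5′ to 3′ on the strand of the gene (GRCm38.p6), with the matched letters in capitals. The Mcm5 stretch lies at chr8:75109330-75109393 on the plus strand, the Mcm6 stretch at chr1:128359719-128359841 on the minus strand, the Cdc6 stretch at chr11:98907987-98908046 on the plus strand and the Pola1 stretch at chrX:93632260-93632319 on the minus strand.
Mcm5: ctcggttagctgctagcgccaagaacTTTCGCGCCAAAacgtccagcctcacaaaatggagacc
Mcm6: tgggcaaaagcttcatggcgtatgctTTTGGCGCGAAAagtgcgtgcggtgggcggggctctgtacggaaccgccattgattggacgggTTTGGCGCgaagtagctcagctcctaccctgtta
Cdc6: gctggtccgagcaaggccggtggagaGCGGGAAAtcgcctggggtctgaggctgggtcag
Pola1: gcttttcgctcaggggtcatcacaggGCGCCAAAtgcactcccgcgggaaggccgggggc
The Cdc6 stretch lies before the RefSeq start but inside the gene as annotated by GENCODE M21, in the first intron of its longer transcripts. In Mcm5 the capitals hold 2 matches that overlap and read in opposite directions. Mcm6 holds 3 matches, an overlapping pair farther from the start and a lone match nearer to it, and it was the only gene of the 14 with 3.

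Other promoter letters separated these genes less from the rest, and their shares were compared only as a description. CCAAT, the letters bound by NF-Y, stood in 59.0% of the 39 windows and in 40.2% of tested windows. GGGCGG, the GC box bound by Sp1, stood in 71.8% and 66.2%. TTTGAA, the core letters of the CHR element of mitotic genes, stood in 10.3% and 11.8%. In a list of 28 genes of G2 and mitosis, of which 23 had a window, the order was turned around, with the CHR letters in 65.2% and the E2F letters in 4.35%. A match to such short letters is a description of the sequence and no evidence of binding, and a window without one may be bound elsewhere.

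**Figure D1:**
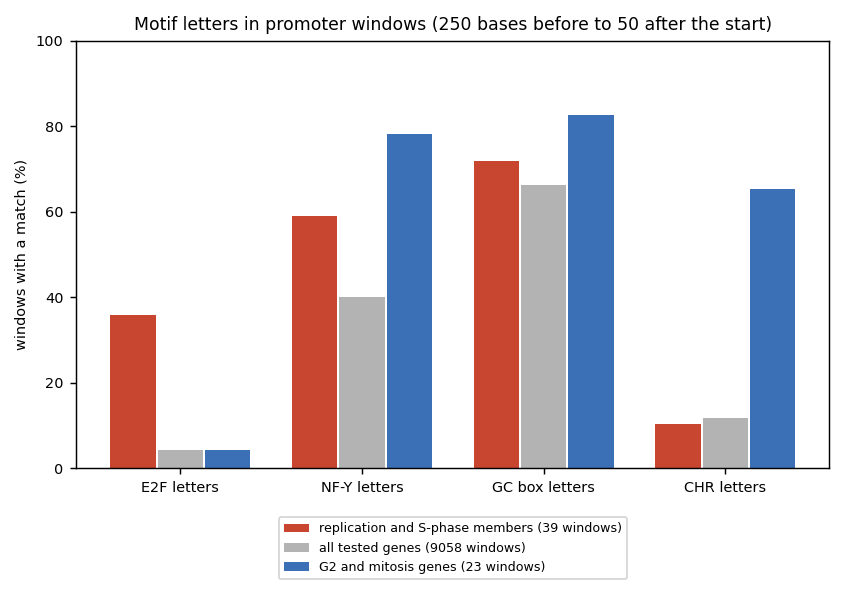
Share of promoter windows (%, 250 bases before to 50 after the start) that hold each kind of motif letters on either strand, for the replication and S-phase genes (39 windows, red), all tested genes (9058 windows, grey) and genes of G2 and mitosis (23 windows, blue). The E2F letters stand in 35.9% of the red set and in 4.28% of the grey, whereas the CHR letters reach 65.2% in the blue set only.

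Count totals over genes ranged from 21619908 to 25263818 per dish, so that 3 counts, taken as the floor of detection, correspond to 0.119 to 0.139 CPM (counts scaled to the size of the library), a limit that covers counting error only. Replication genes lay far above it, with 178 to 16077 counts per gene and dish. Mouse Parg had 48.6, 56.6 and 48.6 CPM in the control and 50.2, 57.7 and 50.3 CPM in the hPARG dishes (log2 fold change 0.04, SE 0.11), and the human transgene has no row in the mouse table, so the induction itself was not checked here. Of 11 fibroblast markers 9 exceeded 1 CPM, whereas Dcn was at most 0.707 CPM and Lum at most 0.188 CPM in any dish. Summed fibroblast markers were 7213 to 8396 CPM in the control and 8302 to 9529 CPM in the hPARG dishes. Summed epithelial, endothelial, leukocyte and adipocyte markers were at most 1.37 CPM in any dish, with Cldn4, Adgre1, Cd3e and Plin1 at 0 counts throughout, and muscle markers reached 6.09 CPM through Des alone. The dishes labelled 2 of both groups stood apart from the other 4, in a way that varied with gene length, and the count, the median and the genes that moved most without them are given after the results by role.

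The question for the comparison was whether replication genes differ when hPARG is switched on. None of the 49 passed the test. Most had slightly lower values with hPARG, by a median of -0.07 on the log2 scale, and the largest difference was that of Rpa2 at -0.34. Against the control mean, the median over the 49 was 0.04, -0.13 and 0.06 in control dishes 1, 2 and 3. In hPARG dishes 1, 2 and 3 it was -0.05, -0.15 and -0.10. Control dish 2 thus lay below hPARG dishes 1 and 3. The SD of this median between dishes of the same treatment was 0.08, so the shift of -0.07 lies within their spread. Lower values were spread over all 7 roles, from licensing (11 of 11 genes below 0) to deoxynucleotide supply (3 of 4), and the medians of the roles lay between -0.14 and -0.04.

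Counts were scaled to CPM with TMM factors and compared with edgeR's quasi-likelihood test, with Benjamini-Hochberg adjustment (FDR) over all 11509 tested genes. Of the 49 genes 0 had an FDR under 0.05, and 0 with DESeq2 (1 at an unadjusted p under 0.05, 2.73% of the genes tested there). Across all tested genes 10 (0.0869%) passed in edgeR, 9 lower (0.0782%) and 1 higher (0.00869%), and 48 of 16896 (0.284%) in DESeq2. The edgeR FDR was 0.999 for each of the 49. At an unadjusted p under 0.05 there was 1 gene, Rpa2, where the share among all tested genes was 3.95%. Log2 fold changes (hPARG minus control) ran from -0.34 to 0.13, and 43 of 49 were below 0 (87.8%), compared with 49.1% of all tested genes, whose median was 0.0038. The 6 genes above 0 were Gins2, Pold3, Rfc5, Lig1, Tk1 and E2f1. Groups that did not overlap in CPM, with every hPARG dish under every control dish, were found for 7 of 49 genes (14.3%, against 6.00% of all tested genes), namely Mcm7, Cdt1, Mcm10, Gins3, Rpa2, Fen1 and Rrm2, and the opposite for 0 (3.61% of all tested genes, 9.62% for either direction). This list depends on the scaling. In the deposited TPM values the groups of Cdt1, Mcm10, Fen1 and Rrm2 overlapped. Gene length is the same in every dish, so this comes from how TPM scales the dishes. The dishes labelled 2 stand higher against the others in TPM. Rrm2, for example, had 211, 205 and 213 CPM but 198, 215 and 184 TPM in control dishes 1, 2 and 3. Those of Orc1, Gins1, Prim2, Rfc2, Rfc4, Ccne1 and Chaf1b were separate in TPM but not in CPM. Replication genes move together through the cell cycle, so the 49 directions are not 49 separate observations. The number below 0 fell to 32 without control dish 3 and to 33 without hPARG dish 2, and was 45 without both dishes labelled 2.

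The size of difference that this fit, which has no replicate block, leaves possible can be read from the intervals. Standard errors ran from 0.086 to 0.28 with a median of 0.13, and 48 of 49 intervals (95%) held 0. Every interval lay within 2-fold in either direction, and 45 lay within 1.5-fold. The 4 that reached farther belonged to Orc1, Gins1, Rpa2 and Rpa3, with the outermost bounds, 0.626-fold and 1.51-fold, both from Rpa3.

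**Figure D2:**
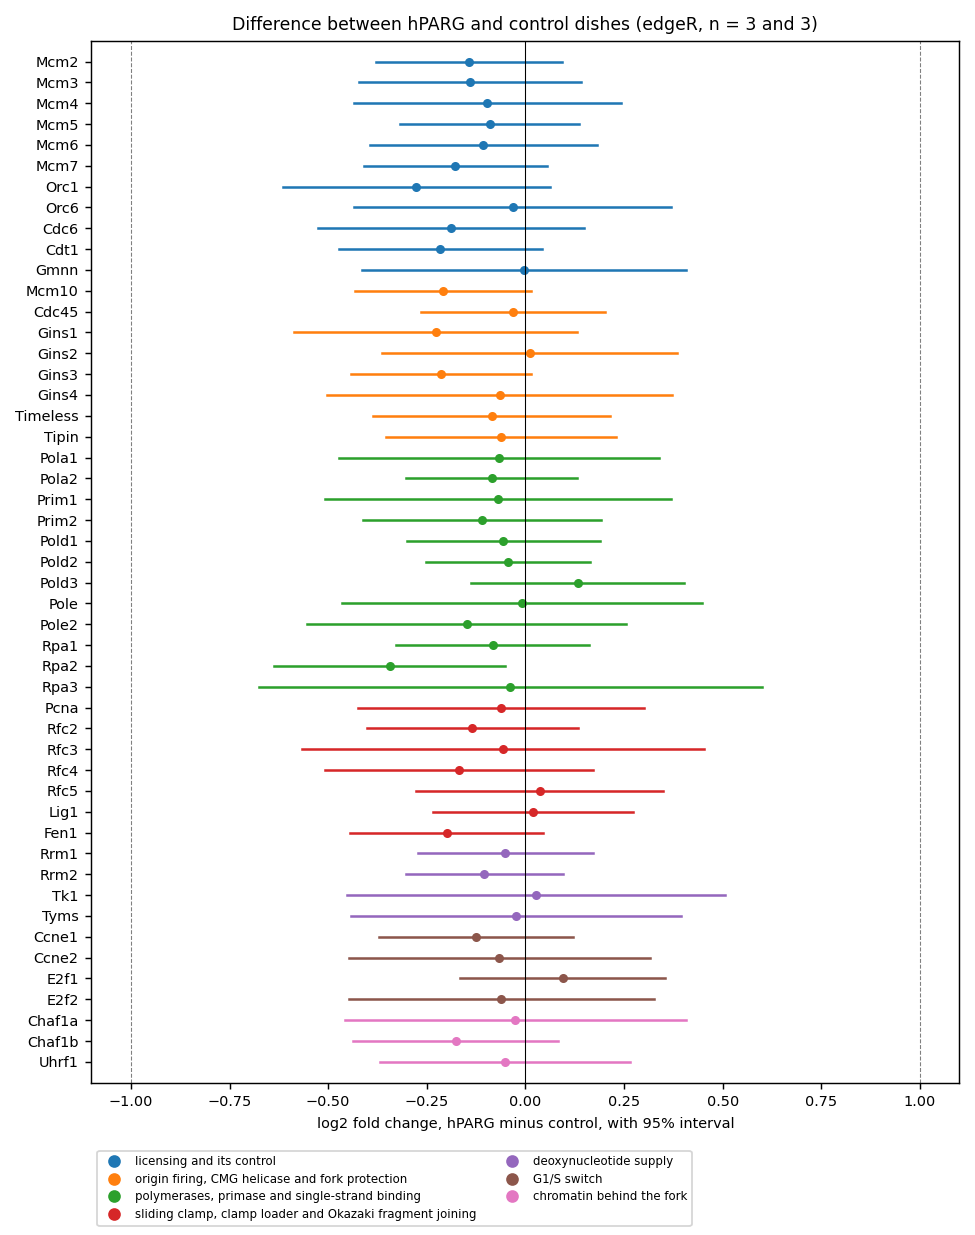
Log2 fold change between hPARG and control dishes for each of the 49 genes (points, edgeR, 3 dishes per group) with its 95% interval (lines), coloured by role. Dashed lines mark 2-fold. Most points lie left of 0, all intervals lie inside the dashed lines, and only that of Rpa2 leaves out 0.

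Licensing genes came first in the order of events and had the lowest median of the roles, -0.14. Values are given for dishes 1, 2 and 3 in that order. Mcm2, a subunit of the helicase ring, had 197, 207 and 175 CPM in the control dishes and 177, 181 and 167 CPM in the hPARG dishes (log2 fold change -0.14, SE 0.10, 95% interval -0.38 to 0.09). Mcm3 had 259, 264 and 226 CPM in the control dishes and 222, 255 and 202 CPM in the hPARG dishes. For both, hPARG dish 2 lay above at least 1 control dish, and the groups overlapped. Mcm4 measured 205, 222 and 178 CPM in the control dishes and 173, 226 and 168 CPM in the hPARG dishes, and the highest single value of the gene was in an hPARG dish. Mcm5 measured 349, 307 and 323 CPM in the control dishes and 322, 298 and 299 CPM in the hPARG dishes, with a range of the hPARG dishes that lay inside or under that of the control dishes. Mcm6 measured 253, 271 and 228 CPM in the control dishes and 229.8, 263 and 206 CPM in the hPARG dishes. In the 4 genes Mcm2, Mcm3, Mcm4 and Mcm6 control dish 2 was the highest and control dish 3 the lowest of its group, a shared pattern between dishes of the same treatment.

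Mcm7 (ENSMUSG00000029730, chr5:138164583-138172422, minus strand, GRCm38) stood apart from the other subunits in that its groups did not overlap, with 588, 542 and 602 CPM in the control dishes and 539, 497 and 494 CPM in the hPARG dishes. The difference of -0.18 (SE 0.10, 95% interval -0.41 to 0.05) did not pass the test. Over the 6 ring subunits the median was -0.12, and all 6 were below 0. The plot of values by dish shows how far the dishes of each group were spread.

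Orc1, the largest subunit of the origin recognition complex, had 36.5, 26.7 and 35.7 CPM in the control dishes and 29.0, 24.4 and 28.3 CPM in the hPARG dishes, the second largest difference of the 49 (log2 fold change -0.28, SE 0.15, 95% interval -0.61 to 0.06). Control dish 2 was below both hPARG dishes 1 and 3, so the groups overlapped. Orc6, a smaller subunit, had a difference of -0.03, with 6.93% of its exon bases opposite Vps35 (459 CPM on average). Cdc6, the loader that works with CDT1, had 47.9, 51.1 and 38.2 CPM in the control dishes and 39.0, 45.6 and 35.7 CPM in the hPARG dishes (log2 fold change -0.19).

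Cdt1 (ENSMUSG00000006585, chr8:122568015-122573554, plus strand, GRCm38) brings MCM2-7 to origins and is destroyed once S phase begins. It had 174, 186 and 164 CPM in the control dishes and 154, 163 and 134 CPM in the hPARG dishes. Every hPARG dish lay under every control dish in CPM, but only narrowly, with 163.5 CPM in control dish 3 and 163.1 CPM in hPARG dish 2. In TPM the groups overlapped, with hPARG dish 2 at 181 TPM and control dishes 1 and 3 at 178 and 154 TPM. The log2 fold change was -0.22 (SE 0.11, 95% interval -0.47 to 0.04), short of the threshold in the fit without a block. Gmnn encodes geminin, the inhibitor that holds CDT1 in check, and had 59.2, 49.1 and 73.6 CPM in the control dishes and 64.7, 49.6 and 67.0 CPM in the hPARG dishes. The groups of Gmnn lay on top of each other, with a log2 fold change of -0.0032 (95% interval -0.41 to 0.41). The difference between Cdt1 and Gmnn in this respect was not tested.

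**Figure D3:**
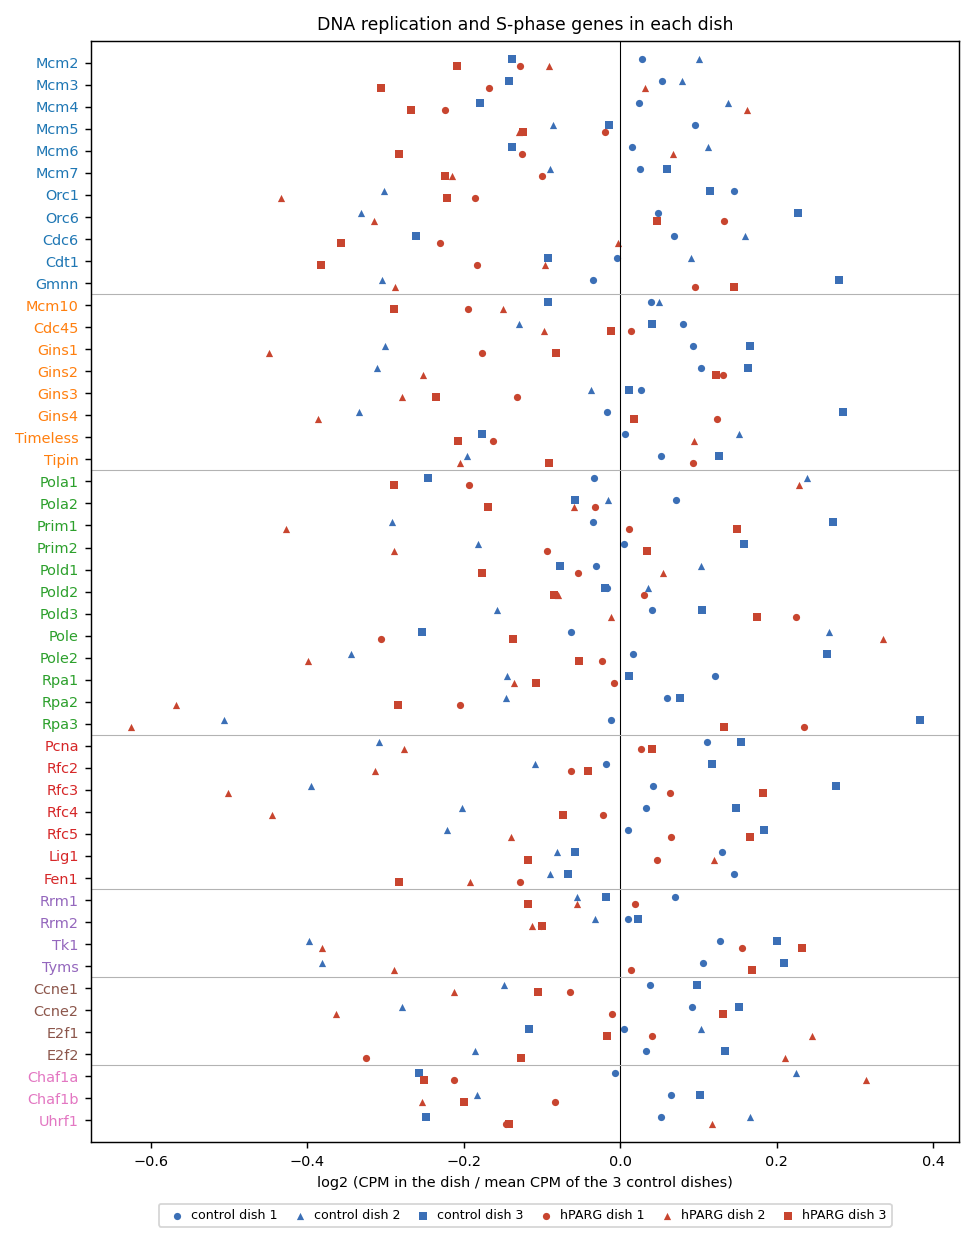
Level of each gene in each dish as log2 of its CPM over the mean CPM of the 3 control dishes, for the 49 genes in order of role. Blue marks are control and red marks hPARG dishes, and the shape gives the dish label. Dish 2 (triangles) is the lowest of its group for 33 genes among control and 28 among hPARG dishes, and red marks stand left of every blue mark for 7 genes.

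Among the 8 genes of origin firing, the CMG helicase and fork protection, 7 were below 0, with a median of -0.08. Mcm10, which helps CMG to start moving, lies at chr2:4989714-5012791 on the minus strand (ENSMUSG00000026669). It had 75.7, 76.2 and 69.1 CPM in the control dishes and 64.4, 66.4 and 60.3 CPM in the hPARG dishes. The groups did not overlap in CPM, and the log2 fold change was -0.21 (SE 0.10, 95% interval -0.43 to 0.01). Gins3, a GINS subunit at chr8:95633453-95645060 on the plus strand (ENSMUSG00000031669), had 20.7, 19.8 and 20.5 CPM in the control dishes and 18.6, 16.8 and 17.3 CPM in the hPARG dishes. Its groups were likewise separate (log2 fold change -0.21, SE 0.10, 95% interval -0.44 to 0.01), and the 3 control dishes differed by less than 1 CPM.

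The other GINS subunits are given beside Gins3. Gins1 had 55.9, 42.5 and 58.8 CPM in the control dishes and 46.4, 38.4 and 49.5 CPM in the hPARG dishes, with control dish 2 below 2 of the hPARG dishes (log2 fold change -0.23, SE 0.15). Gins4 was at -0.07 and Gins2 at 0.01 on the log2 scale. However, 67.3% of the exon bases of Gins2 overlap Gse1 (28.6 CPM on average) on the other strand. Whether strand was used in counting is not stated. Cdc45, the CMG subunit that joins with GINS, had 47.6, 41.1 and 46.3 CPM in the control dishes and 45.4, 42.0 and 44.6 CPM in the hPARG dishes. These values overlapped closely (log2 fold change -0.03, 95% interval -0.26 to 0.20). Timeless, which with its partner Tipin protects the fork, had 39.2, 43.4 and 34.6 CPM in the control dishes and 34.9, 41.7 and 33.8 CPM in the hPARG dishes. Timeless was at -0.09 and Tipin at -0.06.

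The 12 genes of the polymerases, primase and RPA had a median of -0.07, with 11 below 0. Rpa2 (ENSMUSG00000028884, chr4:132768332-132778752, plus strand, GRCm38), the middle subunit of the protein that coats single-stranded DNA, had 79.3, 68.8 and 80.2 CPM in the control dishes and 66.0, 51.4 and 62.5 CPM in the hPARG dishes. All hPARG dishes lay under all control dishes, with means of 76.1 ± 6.36 CPM in the control and 60.0 ± 7.65 CPM in the hPARG dishes (SD, n = 3 each). The log2 fold change of -0.34 (SE 0.13, 95% interval -0.64 to -0.05) was the largest of the 49 and the only one whose interval left out 0. Its unadjusted p in edgeR was 0.0267 and its FDR 0.999, so it did not pass in the fit without a block.

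Estimates for the partners of Rpa2 in the RPA trimer were nearer to 0. Rpa1, the large subunit, was at -0.08 (95% interval -0.33 to 0.16). Rpa3, the small subunit, had 77.6, 55.1 and 102 CPM in the control dishes and 92.0, 50.7 and 85.7 CPM in the hPARG dishes, with a log2 fold change of -0.04 (95% interval -0.68 to 0.60). Both dishes labelled 2 were well below the other 4 dishes, which held between 77.6 and 102 CPM, and the interval of Rpa3 was the widest of the 49. Whether Rpa2 differs from Rpa1 or Rpa3 was not tested.

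Pola1, the catalytic subunit of polymerase alpha, had 159, 192 and 137 CPM in the control dishes and 142, 191 and 133 CPM in the hPARG dishes. Prim1, the primase subunit that lays down RNA primers, had 82.1, 68.7 and 102 CPM in the control dishes and 84.8, 62.6 and 93.3 CPM in the hPARG dishes. Dish 2 was the highest of both groups for Pola1 and the lowest of both groups for Prim1, and the group differences were -0.07 and -0.07. Pole, the catalytic subunit of the leading-strand polymerase epsilon, had 69.6, 87.4 and 61.0 CPM in the control dishes and 58.8, 91.7 and 66.1 CPM in the hPARG dishes (log2 fold change -0.01, 95% interval -0.46 to 0.45). Here, too, the dishes labelled 2 were the 2 highest of the 6. Among the others, Pola2, Prim2, Pold1, Pold2 and Pole2 lay between -0.15 and -0.04. Pold3, an accessory subunit of polymerase delta, had the highest log2 fold change of the 49, 0.13 (SE 0.12, 95% interval -0.14 to 0.40).

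The clamp, its loader and the enzymes that join Okazaki fragments had a median of -0.06, with 5 of 7 below 0. Pcna, the sliding clamp, had 627, 469 and 646 CPM in the control dishes and 592, 479.8 and 598 CPM in the hPARG dishes (log2 fold change -0.06, SE 0.16, 95% interval -0.42 to 0.30). Dish 2 was the lowest of each group, by more than the groups differed. Rfc3, a subunit of the clamp loader, had 76.1, 56.2 and 89.4 CPM in the control dishes and 77.2, 52.2 and 83.8 CPM in the hPARG dishes and the same dishes lowest. Rfc2, Rfc4 and Rfc5 were at -0.13, -0.17 and 0.04 on the log2 scale. Of the exon bases of Rfc4 12.7% lie opposite Eif4a2 (239 CPM on average), and of those of Rfc5 10.7% lie opposite Wsb2 (102 CPM). For Rfc2 15.1% lie opposite Lat2, which was at 0.382 CPM.

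Fen1 (ENSMUSG00000024742, chr19:10199132-10204169, minus strand, GRCm38), the nuclease that trims the flaps of Okazaki fragments, had 132, 112 and 114 CPM in the control dishes and 109, 104 and 98.1 CPM in the hPARG dishes. The hPARG dishes were all under the control dishes in CPM, though 78.8% of its exon bases lie opposite the gene model Gm10143, which was at 0 CPM, and 5.37% opposite Tmem258 (45.9 CPM on average). Its log2 fold change was -0.20 (SE 0.11, 95% interval -0.44 to 0.04). Lig1, the ligase that seals the same fragments, had 143, 123 and 125 CPM in the control dishes and 135, 142 and 120.1 CPM in the hPARG dishes. In contrast to Fen1 the groups of Lig1 overlapped (log2 fold change 0.02, 95% interval -0.23 to 0.27), and the sign of this difference changed with library totals alone or without the dishes labelled 2.

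Enzymes of deoxynucleotide supply had a median of -0.04. Rrm1, the large subunit of ribonucleotide reductase, had 424, 389 and 399 CPM in the control dishes and 409, 389 and 372 CPM in the hPARG dishes. Rrm2 (ENSMUSG00000020649, chr12:24708241-24714146, plus strand, GRCm38), its small subunit that is made in S phase, had 211, 205 and 213 CPM in the control dishes and 195, 194 and 196 CPM in the hPARG dishes. In CPM Rrm2 had the tightest dishes of the 49 and separate groups, but a difference of only -0.10 (SE 0.09, 95% interval -0.30 to 0.09). In TPM its groups overlapped, with 184 TPM in control dish 3 and 197 TPM in hPARG dish 2. Tk1, the S-phase thymidine kinase, had 146, 102 and 154 CPM in the control dishes and 149, 103 and 157 CPM in the hPARG dishes. Tyms, thymidylate synthase, had 129, 92.0 and 139 CPM in the control dishes and 121, 98.1 and 135 CPM in the hPARG dishes. Neither showed a shift between groups beyond the gap between dish 2 and the others, at 0.03 (95% interval -0.45 to 0.51) and -0.02 (95% interval -0.44 to 0.39).

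At the G1/S switch, E2f1, an activating E2F and itself an E2F target, had 107, 114 and 98.2 CPM in the control dishes and 109.5, 126 and 105 CPM in the hPARG dishes, at 0.09 on the log2 scale (95% interval -0.16 to 0.35). E2f2, another activator and the least abundant of the 49, had 10.5, 8.99 and 11.2 CPM in the control dishes and 8.16, 11.8 and 9.35 CPM in the hPARG dishes. Its log2 fold change was -0.06, and the highest and the lowest dish of all 6 were both hPARG dishes. Ccne1 encodes cyclin E1, which activates CDK2 before S phase, and had 56.8, 49.9 and 59.2 CPM in the control dishes and 52.9, 47.7 and 51.4 CPM in the hPARG dishes (log2 fold change -0.13, 95% interval -0.37 to 0.12). Ccne2, for cyclin E2, had 85.0, 65.8 and 88.7 CPM in the control dishes and 79.3, 62.1 and 87.5 CPM in the hPARG dishes. The difference of Ccne2 was -0.07, and 17.4% of its exon bases lie opposite Ints8 (92.0 CPM on average).

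Of the 3 genes that restore chromatin behind the fork, all were below 0, with a median of -0.05. Chaf1a, the large subunit of the histone chaperone CAF-1, had 88.2, 104 and 74.2 CPM in the control dishes and 76.5, 110.1 and 74.5 CPM in the hPARG dishes, with 52.5% of its exon bases opposite Ubxn6 (63.6 CPM on average). Uhrf1, which carries DNA methylation over to the new strand, had 168, 182 and 136 CPM in the control dishes and 146, 176 and 147 CPM in the hPARG dishes. Both had dish 2 as the highest of each group, at -0.03 and -0.05 between groups. Chaf1b, the middle subunit of CAF-1, was at -0.18 (95% interval -0.44 to 0.08).

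Levels of different genes were compared in TPM, which divides by gene length. They ran from 4.69 TPM for E2f2 to 824 TPM for Pcna, and 44 of 49 genes lay above the median of all tested genes, 19.9 TPM. Pcna, at 857 ± 77.9 TPM in the control and 791 ± 25.8 TPM in the hPARG dishes (SD, n = 3 each), was clear of every other gene. Mcm7 came next, at 353 ± 16.1 TPM in the control and 301 ± 29.6 TPM in the hPARG dishes, and its hPARG dishes overlapped with the spread of Rpa3, at 259 ± 53.9 TPM in the control and 243 ± 53.6 TPM in the hPARG dishes. Below these, Rrm1, Tk1, Pold2 and Mcm5 lay within each other's spread, between 203 and 216 TPM on average. The ring subunits Mcm2, Mcm4 and Mcm6 lay together at 121.0 to 123.5 TPM, with Mcm3 at 175.5, Mcm5 at 203 and Mcm7 at 327 TPM, although the proteins form a ring with 1 copy of each.

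At the lower end, Orc1 averaged 22.03 TPM, Pole 21.9, Cdc6 19.2, Timeless 18.6 and Pold3 18.5 TPM, each of which overlapped with the next in the dishes of both groups, although Orc1 lay above Pold3 in all control dishes. Gins3 followed at 15.5 TPM and E2f2 was set apart below it. Subunits of 1 complex could be far apart, with Gins4 at 122 and Gins3 at 15.5 TPM, and Rpa3 at 251 and Rpa2 at 67.5 TPM. The plot of TPM by role gives every dish.

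**Figure D4:**
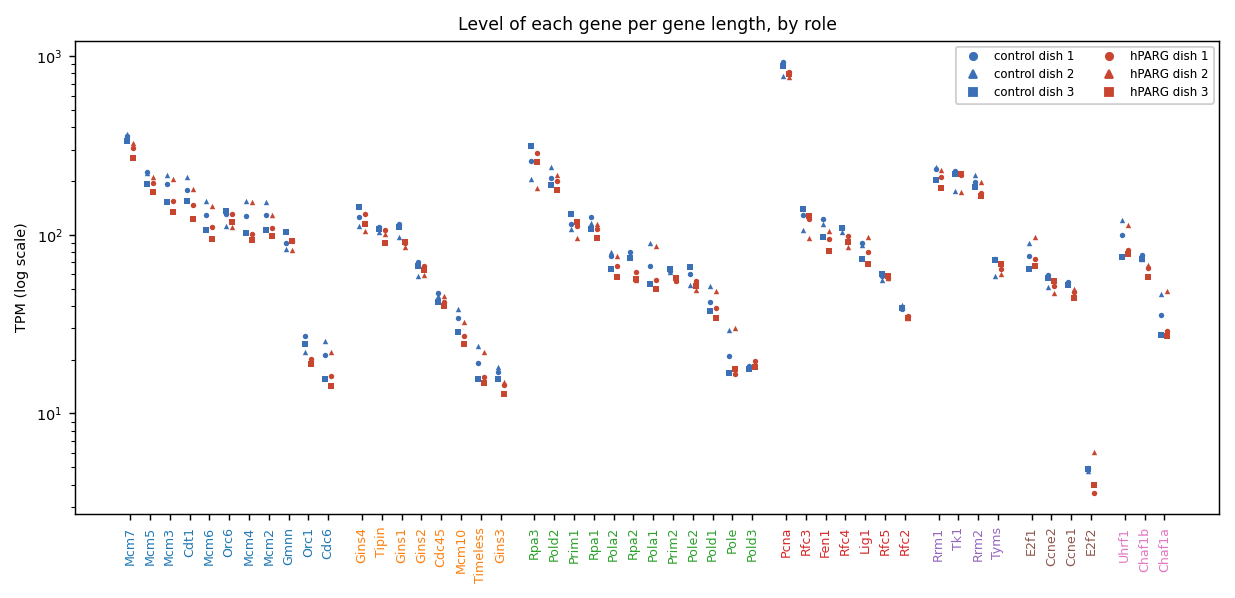
Level of each of the 49 genes in TPM (log scale), ordered within each role by its mean, for 3 control dishes (blue) and 3 hPARG dishes (red), with shapes for the dish labels. Pcna stands highest at 824 TPM on average and E2f2 lowest at 4.69 TPM, and blue and red marks of a gene lie close together.

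Dishes of the same treatment differed in a shared way. The deviation of dish 2 was taken as its log2 CPM minus the mean of dishes 1 and 3 of its group. It had the same sign in both groups for 44 of 49 genes, lower in 30 and higher in 14, where 81.8% of all tested genes had the same sign. The 5 genes that differed in sign were Pola2, Pold2, Lig1, Fen1 and E2f2. For 34 of 49 genes the deviation exceeded the difference between hPARG and control in both groups.

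Of the 7 genes of up to 2000 exon bases, 6 were lower in the dishes labelled 2 of both groups, whereas of the 24 of over 4000 bases 11 were lower and 10 higher in both. Rpa3, with 1136 exon bases the shortest of the 49, deviated by -0.69 among control and -0.80 among hPARG dishes, whereas Pole, with 11160 bases the longest, deviated by 0.42 among control and 0.55 among hPARG dishes. The 7 short genes had medians of -0.42 among control and -0.39 among hPARG dishes, the 18 between 2000 and 4000 bases -0.20 and -0.11, and the 24 of over 4000 bases -0.10 and 0.06. Spearman's rho between exon length and deviation was 0.465 for control and 0.494 for hPARG over the 49 genes, and 0.540 and 0.533 over all tested genes, as a description across genes that share the same libraries. These lengths count every base that lies in an exon of any annotated transcript. By them Tk1, with 5198 exon bases, did not follow its length, and deviated by -0.56 among control and -0.57 among hPARG dishes. In control dish 1, however, Tk1 had 146 CPM and 227 TPM, whereas Rfc5, with 4669 exon bases, had 84.8 CPM and 58.5 TPM. The length behind the TPM values was therefore shorter for Tk1 than for Rfc5, and Tk1 as an exception depends on the length used. What sets the dishes labelled 2 apart was not tested.

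**Figure D5:**
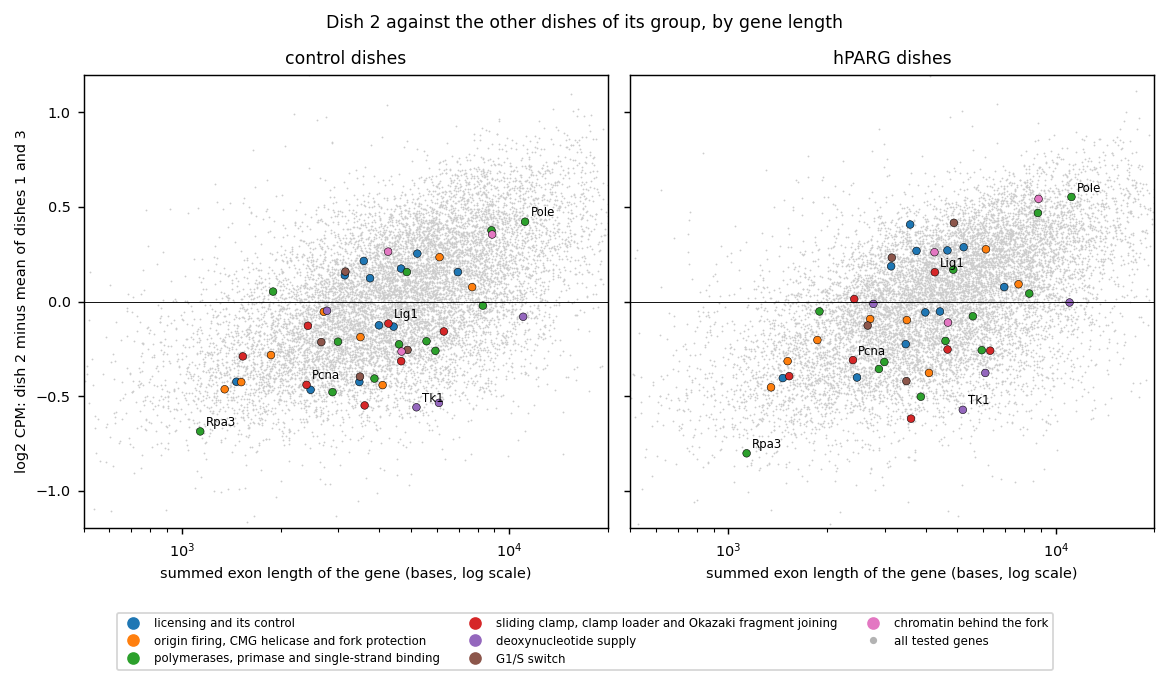
Deviation of dish 2 from the mean of dishes 1 and 3 (log2 CPM) against summed exon length (bases, log scale) in the control (left) and hPARG dishes (right), for the 49 genes (coloured by role) and all tested genes (grey; a few outside the axes are not drawn). Rpa3 lies lowest at the short end and Pole highest at the long end of the coloured points in both panels.

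Without both dishes labelled 2, 45 of 49 genes were below 0 with a median of -0.10, and 0 passed the test in edgeR, against 0.345% of the genes tested there (7 at an unadjusted p under 0.05, 6.78% of those genes; smallest FDR 0.365). E2f2 moved most, from -0.06 to -0.30 (SE 0.15), followed by Lig1 (0.02 to -0.07), Chaf1a (-0.03 to -0.10), Mcm4 (-0.10 to -0.17), Orc1 (-0.28 to -0.33) and Pole (-0.01 to -0.06). Rpa2 was at -0.31, Cdt1 at -0.23, and Gins2 turned from 0.01 to -0.0018. Removing control dish 2 alone moved the median to -0.14, and removing hPARG dish 1 alone moved it to -0.11. In both cases 0 genes passed, and leaving out any of the other 4 dishes kept the median between -0.09 and -0.07.

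Other genes of the same pathway were taken from lists chosen by role. Of 80 tested genes in 5 such lists 0 passed in edgeR (2 at an unadjusted p under 0.05), and 54 were below 0 (67.5%), with a median of -0.05. Among all tested genes 0.0869% passed, 3.95% had an unadjusted p under 0.05 and 49.1% were below 0. By list, 7 of 16 other licensing and firing genes were below 0 (median 0.01), 13 of 20 other fork genes (-0.05), 11 of 13 other deoxynucleotide genes (-0.09), 14 of 21 other G1/S regulators (-0.04) and 9 of 10 other chromatin genes (-0.08). In the list of 28 genes of G2 and mitosis, 12 were below 0 and the median was 0.01. Chtf8 was not analysed here, and E2f6 did not pass the filter on low counts. Whether the lists differ from each other or from the 49 genes was not tested.

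None of these genes was called in the fit without a block, and the naming rule selected Orc5 and Myc because they were called with the replicate block, whose values are given with the alternatives in the closing section. Orc5, a subunit of the origin recognition complex, had 43.2, 42.0 and 49.5 CPM in the control dishes and 36.2, 34.0 and 39.4 CPM in the hPARG dishes. Every hPARG dish lay under every control dish (log2 fold change -0.30, SE 0.11, FDR 0.999 in edgeR without a block). Myc, a transcription factor that drives entry into the cycle, had 171, 224 and 191 CPM in the control dishes and 147, 172 and 145 CPM in the hPARG dishes. Its control dish 1 lay just under hPARG dish 2, so the groups overlapped (log2 fold change -0.34, SE 0.13, FDR 0.999 in edgeR without a block).

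Genes with and without the E2F letters were set side by side. The 14 with a match had a median log2 fold change of -0.12 and 13 below 0, the 25 without a match -0.06 and 21 below 0, and the 10 without a window -0.07 and 9 below 0. The range was -0.28 to 0.13 with a match and -0.34 to 0.09 without, so the sets overlapped over most of their length. Among the genes with a match, Mcm3, Mcm5, Mcm6, Mcm7, Orc1, Cdc6 and Cdt1 belong to licensing, the role with the lowest median (-0.14). The letters and the role therefore overlap in part. The matched genes of other roles were Gins3 at -0.21, Pole2 at -0.15, Pola1 at -0.07, E2f2 at -0.06, Pold1 at -0.06, Rfc3 at -0.06 and Pold3 at 0.13. Whether the sets differ, with or without the licensing genes, was not tested. Of the 4 genes whose stretches are printed above, Cdc6 was at -0.19, Mcm6 at -0.11, Mcm5 at -0.09 and Pola1 at -0.07. Rpa2, with the largest difference of the 49, had no match in its window.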

How the data were processed

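RNA of 6 dishes was analysed. The authors trimmed the paired-end reads of poly(A) libraries, mapped them to the mouse genome (GRCm38 with its Ensembl annotation) in CLC Genomics Workbench and deposited unnormalized counts, as whole numbers for each gene. Up to 10 hits per read were allowed, so genes with near copies can share reads, and the use of strand is not stated. The authors also deposited TPM values per dish, used here to compare levels between genes, and RPKM values, used here only to recover gene lengths. The authors' columns of their own comparison (fold changes, p-values and FDR) and their CPM were not used.

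Genes were filtered with filterByExpr (minimum count 10), scaled by TMM and tested with glmQLFit and glmQLFTest in edgeR 4.0.16 (limma 3.58.1, R 4.3.3), with treatment as the only term. Genes were called at an FDR under 0.05. Standard errors are the absolute log2 fold change over the square root of F, and 95% intervals use the moderated degrees of freedom. An exact test of 3 dishes against 3 cannot give a p under 0.1. Exon lengths and overlaps came from GENCODE M21 (GRCm38), over the exons of all annotated transcripts of a gene. The fit was tested on simulated data.

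The members, the gene lists and the marker lists were chosen with earlier results of these data known. Values by dish are given for 32 members fixed by name, for any other member called with or without the replicate block or without overlap between groups (Gins3), and for at most 3 called genes of each other list. The alternatives tried were RLE size factors, library totals, DESeq2 1.42.0, 2 other filters, a call that also asks for more than 2-fold, the replicate block, a length correction (splines with 4 degrees of freedom) with and without it, each dish left out in turn, and both dishes labelled 2 left out. Protein sequences were not used here.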

Additional observations from a re-analysis of the deposited data

How the results depend on the processing

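Dishes carry the numbers 1 to 3 in both groups, and nothing in the labels says that a number marks a shared day or batch. Deviations from the group means over all tested genes correlated at 0.0963, 0.610 and 0.168 between dishes with the same number, and at -0.441 to 0.335 between dishes with different numbers. Only the dishes numbered 2 correlated best with each other, whereas control dish 1 correlated best with hPARG dish 3 (0.207) and control dish 3 with hPARG dish 1 (0.335), so the numbers were not taken to pair the dishes. With the replicate block, 2 of the 49 genes had an FDR under 0.05 in edgeR, Rpa2 (log2 fold change -0.35, FDR 0.0111) and Cdt1 (-0.22, FDR 0.0499), and 14 had an unadjusted p under 0.05, where the shares of all tested genes were 2.87% and 17.9%. With the block and the length correction 2 passed as well, Rpa2 (FDR 0.0104) and Mcm10 (FDR 0.0441), while Cdt1 had an FDR of 0.0504. Orc5 and Myc passed with the block (FDR 0.0289 and 0.00834) and with the block and length correction (0.0317 and 0.00685). Over the alternatives without the block the FDR of each of these genes lay between 0.365 and 1.00. No other member or named gene changed its call.

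The number of all tested genes called was 10, and became 330 with the replicate block, 365 with the block and length correction, 28 with the length correction alone, 48 with DESeq2, 16 without the filter, 40 without the dishes labelled 2 and 3 to 13 when 1 dish was left out (3 without hPARG dish 1 and 5 without hPARG dish 3). The cause was not tested. Among the 49 genes 0 were called in each of these settings other than those with the block. The number below 0 was 42 to 46 under the other scalings, filters, tools and corrections and 32 to 43 when 1 dish was left out, lowest without control dish 3 (32) and hPARG dish 2 (33). Their median ran from -0.10 to -0.06 and from -0.14 to -0.07.

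Gmnn, at -0.0032, was at 0.0028 with RLE size factors, 0.00049 with DESeq2, 0.0035 with the replicate block, 0.017 with the block and length correction and 0.015 with the length correction. Lig1 was at -0.0063 and Tk1 at -0.0014 with library totals, and Lig1 at -0.068 without the dishes labelled 2. With 1 dish left out, signs turned for 14 of the named genes, and their log2 fold changes ran for Gmnn from -0.13 to 0.16, Cdc45 from -0.092 to 0.017, Pola1 from -0.24 to 0.069, Pole from -0.22 to 0.15, Prim1 from -0.19 to 0.088, Pcna from -0.19 to 0.034, Rfc3 from -0.22 to 0.12, Lig1 from -0.034 to 0.095, Tk1 from -0.14 to 0.19, Tyms from -0.18 to 0.093, Ccne2 from -0.19 to 0.062, E2f2 from -0.22 to 0.053, Uhrf1 from -0.16 to 0.039 and Chaf1a from -0.23 to 0.10. The cause was not tested.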

Other observations

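Some of the other lists held the E2F letters as often as the 49 replication and S-phase genes did. A match stood in 5 of 13 windows of other licensing and firing genes (38.5%), 5 of 15 of other G1/S regulators (33.3%), 4 of 17 of other fork genes (23.5%) and 2 of 10 of other chromatin genes, and in 0 of 10 windows of other deoxynucleotide genes. CCAAT stood in 9 of 10 windows of the chromatin genes. These shares rest on few windows and were not tested.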
